A study of Mus musculus with 12 samples.

Results

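The collagens, laminins and other matrix proteins of GT1-7 cells were examined across 3 groups of samples. GT1-7 is a mouse hypothalamic neuronal line that makes gonadotropin-releasing hormone (GnRH). Members were all genes in any deposited table whose symbol named a collagen chain, a laminin chain, a nidogen, a fibrillin, a fibulin, perlecan (Hspg2), agrin (Agrn), fibronectin (Fn1), Sparc or periostin (Postn). They numbered 46 of 12786 genes, with 27 collagen genes, 8 laminin genes, 4 fibulin and fibrillin genes, 2 nidogen genes and 5 others. Each group held 4 samples. Cells of the Klf4 siRNA group received siRNA to Klf4, which encodes a DNA-binding zinc finger protein, and those of the Scramble group a scrambled siRNA. Both were transfected for 24 h using lipofectamine 2000 and Opti-MEM I. Vehicle cells, for which no transfection was stated, went without serum for 6 h and then spent 1 h in Ca2+-free DMEM. By what was stated, they thus differed from both siRNA groups in medium, serum and transfection at once. All groups came from the same line, grown in 10% fetal bovine serum. No other siRNA against Klf4 was described, so lower Klf4 and other effects of the siRNA cannot be told apart. The labels did not say whether samples of a group were separate cultures, so p-values measure only the spread between these samples, which may be technical.

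Matrix proteins are secreted, assembled outside the cell and bound by integrins and other receptors. Basement membranes join networks of type IV collagen and laminin trimers through nidogens, perlecan and agrin, while fibrillar collagens, fibronectin, fibrillins and fibulins form the interstitial matrix. Collagen chains assemble as trimers inside the endoplasmic reticulum, so the chains of a type are made together in many tissues. Neurons and glia contact basement membrane mainly at blood vessels and at the surface of the brain.

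The type IV collagen genes lie as divergent neighbours, so their promoters are shown. The proportion between neighbours differed between each siRNA group and Vehicle but did not pass between the siRNA groups. The exact permutation tests of this, given with those genes, were added after the values were seen. Each window runs from 250 bases before to 50 bases after the RefSeq start site on GRCm38.p6, the assembly of mm10, 5′ to 3′ on the gene's own strand. Capitals mark CACCC, the core of the KLF4 site, and GGGCGG, the GC box, on either strand. The start sites of Col4a1 (chr8:11312777-11313076, minus strand) and Col4a2 (chr8:11312555-11312854, plus strand) lie 21 bases apart, and their windows overlap by 78 bases. Those of Col4a6 (chrX:141474027-141474326, minus strand) and Col4a5 (chrX:141475169-141475468, plus strand) lie 1343 bases apart.
Col4a1: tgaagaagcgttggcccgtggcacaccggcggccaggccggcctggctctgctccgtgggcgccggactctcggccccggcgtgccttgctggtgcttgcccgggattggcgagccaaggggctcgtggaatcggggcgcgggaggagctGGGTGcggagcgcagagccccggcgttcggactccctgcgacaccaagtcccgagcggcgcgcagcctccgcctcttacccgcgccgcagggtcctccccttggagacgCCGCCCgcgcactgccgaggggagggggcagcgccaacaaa
Col4a2: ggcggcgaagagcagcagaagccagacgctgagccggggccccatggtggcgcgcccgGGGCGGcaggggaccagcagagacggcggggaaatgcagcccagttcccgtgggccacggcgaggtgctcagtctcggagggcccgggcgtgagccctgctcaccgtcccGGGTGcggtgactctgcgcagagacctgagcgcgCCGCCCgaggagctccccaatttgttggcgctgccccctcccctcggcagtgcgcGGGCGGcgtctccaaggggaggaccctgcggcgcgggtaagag
Col4a5: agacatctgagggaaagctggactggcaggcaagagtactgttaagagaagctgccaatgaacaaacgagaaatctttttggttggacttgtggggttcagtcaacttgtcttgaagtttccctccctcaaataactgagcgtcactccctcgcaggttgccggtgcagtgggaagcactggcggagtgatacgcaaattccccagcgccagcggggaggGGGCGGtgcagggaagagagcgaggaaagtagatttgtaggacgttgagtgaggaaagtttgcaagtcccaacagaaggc
Col4a6: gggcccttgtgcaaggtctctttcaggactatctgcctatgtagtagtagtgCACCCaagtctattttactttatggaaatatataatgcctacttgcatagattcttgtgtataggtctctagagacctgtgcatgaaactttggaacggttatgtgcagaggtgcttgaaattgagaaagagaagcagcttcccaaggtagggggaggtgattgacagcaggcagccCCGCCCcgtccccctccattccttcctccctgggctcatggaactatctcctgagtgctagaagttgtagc

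The Col4a1 window held 1 CACCC and 1 GC box, and the Col4a2 window 1 CACCC and 3 GC boxes. Col4a5 had 0 CACCC and 1 GC box, and Col4a6 had 1 of each. Among 35 members with a window in the RefSeq table, 80% held CACCC on either strand, against 59.8% of all 27025 genes in it. GGGCGG was found in 71.4% of these members and 38.2% of all genes. That set of all genes was not limited to genes listed for these cells, while the members were. Member windows were also richer in G and C, with a median of 60.3% against 52.7% in all windows, and a match describes letters only, not a bound site.

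Total counts per sample ranged from 25992363 to 39674984. Klf4 itself had 44, 30, 61 and 45 counts in the Klf4 siRNA samples 1 to 4, 187, 152, 93 and 121 in Scramble and 166, 138, 131 and 158 in Vehicle, and its log2 fold change was -1.53 (SE 0.19, adjusted p by edgeR = 5.8e-05) for Klf4 siRNA over Scramble. Of 7 GnRH neuron markers, 6 were measured here, and their summed level was 1350 to 1500 CPM in Klf4 siRNA, 2360 to 2730 in Scramble and 1470 to 1640 in Vehicle. Gnrh1 was at 1690 ± 139 CPM in Scramble against 676 ± 63.6 in Vehicle (SD, n = 4), and in that comparison Gnrh1, Chgb and Dlx5 were called higher, Six6 (-0.16) and Isl1 (-0.15, log2 fold change) lower, and Otx2 did not pass. All 6 were called lower in Klf4 siRNA than in Scramble. CPM (counts scaled per library) is used here for levels of the same gene across samples. Klf4 siRNA samples 1 and 4 stood apart in the gene model Gm10800, with 25825 and 10572 counts against 687 and 259 in samples 2 and 3. Counts of calls in comparisons with the Klf4 siRNA are therefore given with and without those samples.

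Matrix transcripts were most abundant in Scramble. The summed level of the 46 genes was 6010 to 6670 CPM with the Klf4 siRNA, 9000 to 9330 with Scramble and 7410 to 7940 in Vehicle, with no overlap between groups. Without Sparc, the other 45 genes summed to 4220 to 5040 CPM with the Klf4 siRNA and 4520 to 5070 in Vehicle, which overlapped, against 6720 to 7170 with Scramble. As a share of counts, all 46 genes with Sparc made up 0.607% to 0.684% in Klf4 siRNA, 0.912% to 0.953% in Scramble and 0.725% to 0.771% in Vehicle. By group means, 28 of the 46 were highest in Scramble, 12 in Vehicle and 6 in Klf4 siRNA, while 21 were lowest in Klf4 siRNA, 21 in Vehicle and 4 in Scramble. This order was not counted over all genes, so whether the members differ from other genes in it is not known.

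Levels of different genes were set side by side per kilobase of gene length, as CPM per kb. The deposited length is a single value per gene and does not tell which transcripts were made, so ranks between genes are approximate. Sparc, which encodes a secreted collagen-binding glycoprotein, was the highest member in every group, at 462 ± 22.3 CPM per kb in Klf4 siRNA, 581 ± 14.5 for Scramble and 766 ± 18.5 for Vehicle (SD, n = 4). In Scramble it was followed by Col6a1 (235 ± 6.18 CPM per kb), Lamb2 (134 ± 7.27), Col4a5 (129 ± 4.51) and Fn1 (124 ± 8.3), of which the last 3 did not differ beyond their spread. Nid2, Fbln1, Col4a6, Col4a1, Col5a1, Col6a2, Nid1, Col4a2 and Lamc1 lay between 93.8 and 21.7 CPM per kb in Scramble. Agrn stood at 9.37 and every remaining member at or below 6.7 CPM per kb. Of the fibril-forming collagens other than Col5a1, Col1a2 stood at 6.7 ± 0.289, Col1a1 at 3.44 ± 0.3, Col3a1 at 0.287 ± 0.0462 and Col2a1 at 0.953 ± 0.135 CPM per kb in Scramble.

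**Figure D1:**
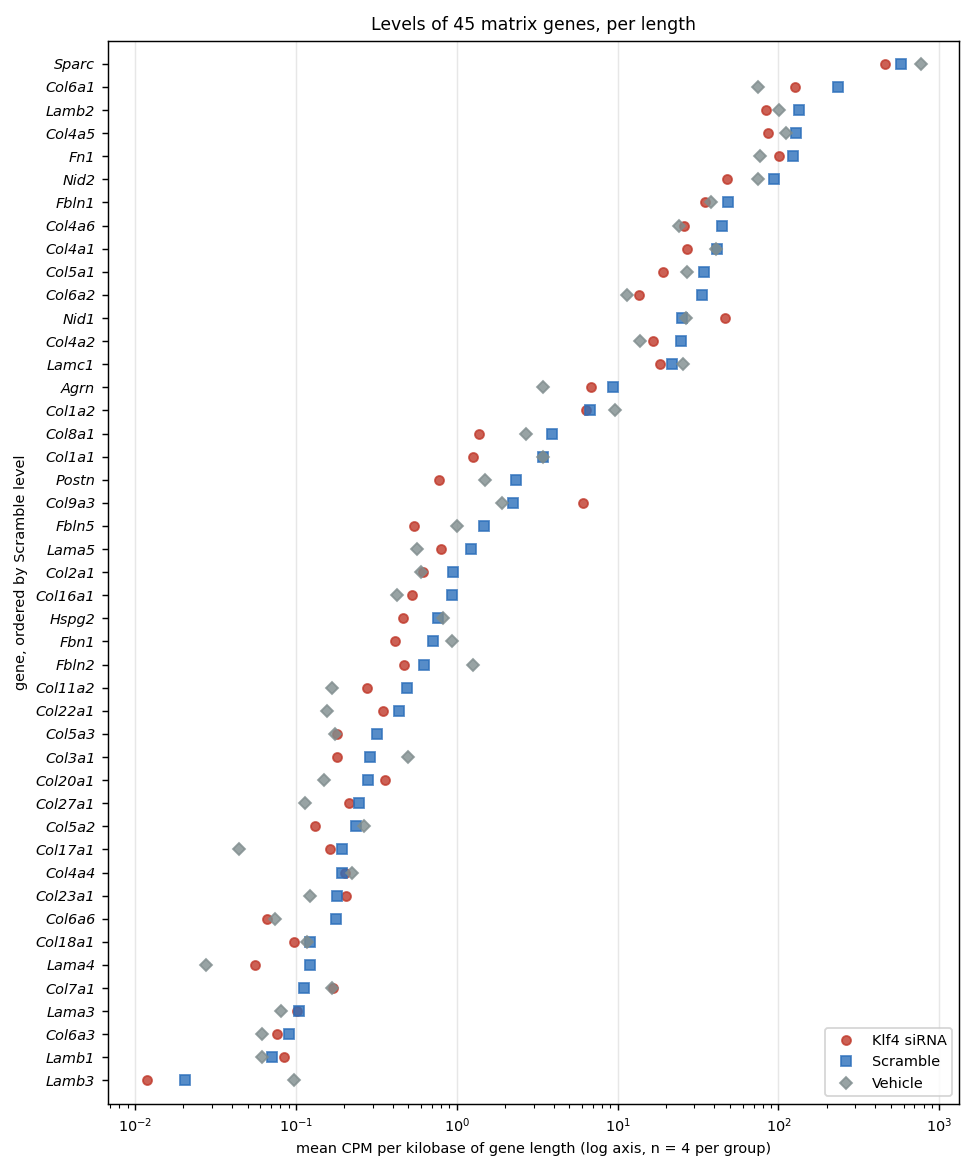
Mean level of 45 matrix genes in CPM per kilobase of gene length (log axis, 4 samples per group), ordered by the Scramble level. Sparc lay highest in every group, and in Scramble levels ran from 581 for Sparc to 0.0204 for Lamb3.

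Not every chain of a trimer was read at a like level. Col6a1 and Col6a2, chains of the type VI collagen that forms beaded filaments, stood at 235 ± 6.18 and 33.6 ± 1.57 CPM per kb in Scramble. Col6a3, for another chain of that trimer, stood at 0.0905 ± 0.0146 (SD, n = 4). These values rest on the deposited lengths, 4380 bases for Col6a1 and 8326 for Col6a2. Before division by length, Col6a1 and Col6a2 were at 1030 ± 27.1 and 280 ± 13.1 CPM in Scramble. Among laminin chains in Scramble, the beta chain gene Lamb2 stood at 134 ± 7.27 and the gamma chain gene Lamc1 at 21.7 ± 1.75 CPM per kb. The alpha chain genes measured here were far lower in Scramble, with Lama5 at 1.23 ± 0.264, Lama4 at 0.122 ± 0.0356 and Lama3 at 0.104 ± 0.0275. Lamb1 stood at 0.0707 ± 0.0165 CPM per kb. The type V gene Col5a1 stood at 34.5 ± 1.69 in Scramble, and its partners Col5a2 and Col5a3 at 0.235 ± 0.058 and 0.321 ± 0.123.

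Between the transfected groups, most matrix genes stood lower with the Klf4 siRNA. Of 45 members tested, 28 were lower with the Klf4 siRNA, 2 were higher and 15 did not pass (edgeR quasi-likelihood test, Benjamini-Hochberg adjusted p under 0.05 over all genes). Over all 12663 genes tested, 36% were called, with 17.5% lower and 18.5% higher, against 62.2% and 4.44% of members. The median log2 fold change was -0.59 over members and 0 over all genes. In 25 members every Klf4 siRNA sample lay below every Scramble sample, and in 2 above, where all genes gave 16.7% and 18%. Among calls of at least 2-fold, 7 members were lower and 1 higher, against 1.11% and 1.58% of all genes, and the authors' deposited table also marked 7 down and 1 up. Without Klf4 siRNA samples 1 and 4, 27 members were lower and 2 higher.

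In the comparison of Scramble with Vehicle, 25 of 45 members were higher in Scramble, 8 were lower and 12 did not pass (edgeR, adjusted p under 0.05). Over all 12633 genes 53.9% were called, with 27.3% higher and 26.6% lower, against 55.6% and 17.8% of members. The median log2 fold change was 0.41 over members and 0.01 over all genes. In 24 members every Scramble sample lay above every Vehicle sample and in 7 below, against 24.6% and 23.7% of all genes. Among calls of at least 2-fold, 11 were higher and 2 lower, against 2.53% and 2.55% of all genes, and the authors' deposited table marked 11 up and 2 down.

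Klf4 siRNA against Vehicle gave a mixed picture. Of 44 members tested, 19 were lower with the Klf4 siRNA, 12 higher and 13 did not pass (edgeR, adjusted p under 0.05), where 45.4% of all 12684 genes were called, 21.3% lower and 24.1% higher. The share of members was 43.2% lower and 27.3% higher, the latter close to that of all genes. The medians were -0.05 over members and 0.02 over all genes. Groups did not overlap for 19 lower and 11 higher members, against 19.6% and 21.6% of all genes. Among calls of at least 2-fold, 6 members were lower and 5 higher, against 2.63% of all genes in each direction, and the authors' deposited table marked 6 down and 5 up. Without Klf4 siRNA samples 1 and 4, 18 were lower and 10 higher. Each comparison shares a group with the other two, so they are not independent.

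Markers of other cell types were followed by their summed levels and, for fibroblasts, endothelium and microglia, gene by gene. Of 11 fibroblast and pericyte markers, 4 were measured here (Dcn, Pi16, Pdgfrb and Pdgfra), and their summed level was 23.3 to 25.6 CPM in Klf4 siRNA, 38.7 to 43.3 in Scramble and 31.6 to 40.5 in Vehicle. Within that sum Pi16 was at 9.44 ± 0.38, 22 ± 0.879 and 2.07 ± 0.414 CPM in that order, and Pdgfra at 11.1 ± 0.873, 12.9 ± 1.24 and 25.9 ± 3.56 (SD, n = 4). With the Klf4 siRNA over Scramble Pi16 and Pdgfrb were called lower and Dcn and Pdgfra did not pass, and in Scramble over Vehicle Pi16 was called higher, Dcn and Pdgfra lower and Pdgfrb did not pass. Of 9 endothelial markers, 3 were measured here (Tek, Egfl7 and Kdr), at 31 to 33.6, 46.6 to 54.9 and 54 to 61.6 CPM in the same order. Kdr made up most of this, at 17.4 ± 1.89, 38 ± 3.81 and 52.5 ± 3.19 CPM (SD, n = 4). Egfl7 was at 13.7 ± 1.21, 13.5 ± 0.786 and 6.9 ± 0.62 CPM, and Tek was called higher with the Klf4 siRNA than in Scramble at 25, 19, 44 and 20 counts against 14, 4, 2 and 1. The 2 of 7 astrocyte markers measured here, Aldh1l1 and Gja1, summed to 85.2 to 102, 57.9 to 64.7 and 76.9 to 88 CPM. In the oligodendrocyte lineage 2 of 7 markers gave 4.61 to 5.04, 4.92 to 6.44 and 6.57 to 7.88 CPM. The 2 of 7 of microglia and macrophages, Csf1r and Tmem119, gave 35.1 to 39.4, 33.5 to 37.4 and 41 to 49 CPM, but went opposite ways. With the Klf4 siRNA over Scramble, Csf1r was called higher (log2 fold change 0.19) and Tmem119 lower (-0.55). In Scramble over Vehicle, Csf1r was called lower (-0.54) and Tmem119 higher (0.42). Lum, Pecam1, Cdh5, Gfap and Cx3cr1, defining markers of these types, were looked for but were not among the 12786 genes analysed here. The part of these markers in the matrix results was not tested. In bulk RNA, fewer cells of a type and less RNA per cell cannot be told apart.

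**Figure D2:**
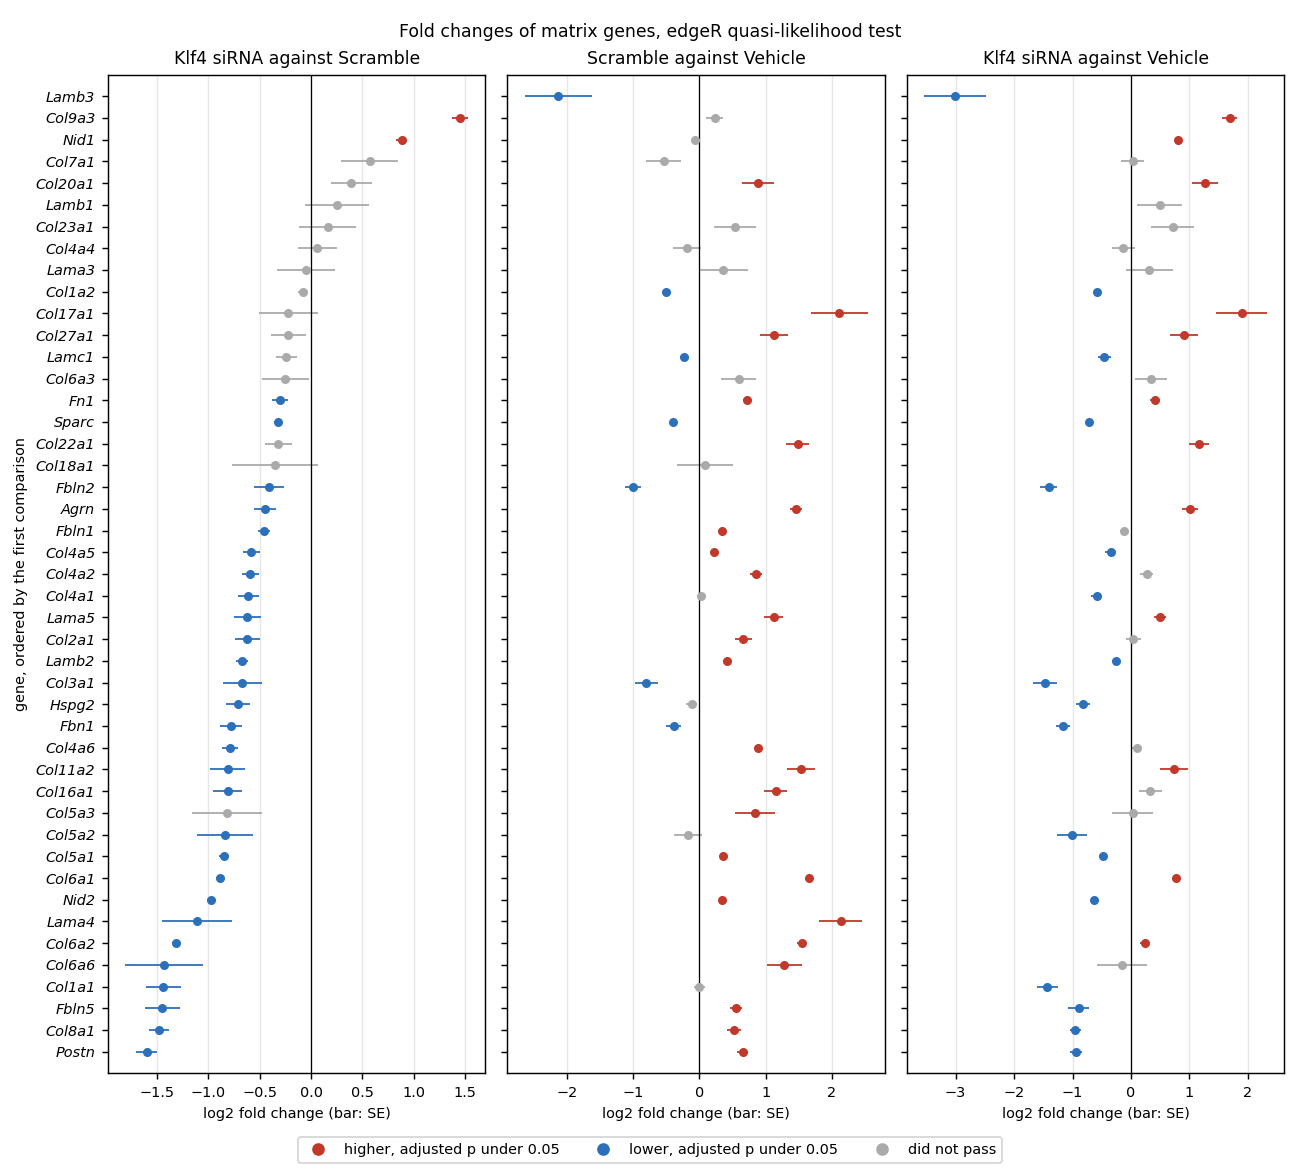
Log2 fold change of 45 matrix genes (points) with its SE (bars) in the 3 comparisons, coloured by edgeR call at an adjusted p under 0.05. In Klf4 siRNA against Scramble, Col9a3 (1.45) and Nid1 (0.88) were the called members to the right of 0, while 28 lay to the left.

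Among basement membrane collagens, all 4 abundant type IV chains were lower with the Klf4 siRNA than in Scramble. Col4a1 (chromosome 8, 11198423 to 11312826) was at 152, 214, 219 and 222 CPM in Klf4 siRNA samples, 326, 304, 309 and 300 in those of Scramble and 285, 332, 310 and 297 in those of Vehicle. The Klf4 siRNA samples lay below all others, and Scramble and Vehicle overlapped. Its log2 fold change was -0.61 (SE 0.10, adjusted p by edgeR = 0.00031) for Klf4 siRNA over Scramble and 0.02 (SE 0.05, adjusted p by edgeR = 0.74) for Scramble over Vehicle. Col4a2 (chromosome 8, 11312805 to 11449287) was at 96.9, 99.9, 113 and 126 CPM in Klf4 siRNA samples, 184, 157, 166 and 151 in those of Scramble and 89.4, 111, 78.8 and 84.1 in those of Vehicle. Here Scramble lay above both other groups, which overlapped. Col4a2 stood at 66.5% of Scramble with the Klf4 siRNA (log2 fold change -0.59, SE 0.08, adjusted p by edgeR = 0.00016), and was 1.81-fold higher in Scramble than in Vehicle (log2 fold change 0.85, SE 0.09, adjusted p by edgeR = 5.6e-06). Relative to its divergent neighbour Col4a1, Col4a2 thus stood lower in Vehicle than in either siRNA group, while the ratios of the siRNA groups overlapped.

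Col4a5 (chromosome X, 141475385 to 141689234) was at 458, 597, 617 and 647 CPM in Klf4 siRNA samples, 878, 847, 908 and 843 in those of Scramble and 722, 772, 736 and 747 in those of Vehicle. No groups overlapped, in the order Scramble, Vehicle, Klf4 siRNA. Its log2 fold change was -0.58 (SE 0.08, adjusted p by edgeR = 0.00017) for Klf4 siRNA over Scramble and 0.22 (SE 0.04, adjusted p by edgeR = 0.00027) for Scramble over Vehicle. Col4a6 (chromosome X, 141165403 to 141474076) was at 197, 178, 200 and 247 CPM in Klf4 siRNA samples, 379, 352, 362 and 334 in those of Scramble and 191, 217, 178 and 185 in those of Vehicle. Scramble stood above both other groups, which overlapped, with -0.79 (SE 0.08, adjusted p by edgeR = 1e-05) for Klf4 siRNA over Scramble and 0.89 (SE 0.06, adjusted p by edgeR = 7.1e-08) for Scramble over Vehicle. Col4a4, the chain of another type IV trimer, was near 2 CPM in every group and passed in no comparison.

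Ratios of partner genes within a sample do not depend on how libraries are scaled. Partner genes of 5 pairs were compared as ratios of CPM per kb in the 3 comparisons. This gave 15 two-sided exact permutation tests in all, where the smallest possible p is 0.0286 (0.0358 after Benjamini-Hochberg adjustment). The pairs were added after the values of their genes were seen. Their p-values thus describe how these samples separate and are not independent support. The size of a ratio depends on the deposited gene lengths, while its fold difference between groups does not. Col4a2 over Col4a1 was 0.617 ± 0.0821 in Klf4 siRNA, 0.597 ± 0.0308 for Scramble and 0.335 ± 0.0401 for Vehicle (SD, n = 4). Both siRNA groups lay above Vehicle with no overlap (exact permutation p = 0.0286, adjusted 0.0358, for each), and Klf4 siRNA and Scramble overlapped (exact permutation p = 0.714). Col4a6 over Col4a5 was 0.302 ± 0.0499, 0.346 ± 0.014 and 0.218 ± 0.0152 in the same order. Again each siRNA group exceeded Vehicle (exact permutation p = 0.0286, adjusted 0.0358), while Klf4 siRNA and Scramble gave exact permutation p = 0.171 (adjusted 0.183). The plus and minus strand genes of the X pair thus shifted against each other in Vehicle as well. Col4a1 and Col4a2 share 22 exonic bases on opposite strands and the library did not mark strand, so reads there cannot be assigned.

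**Figure D3:**
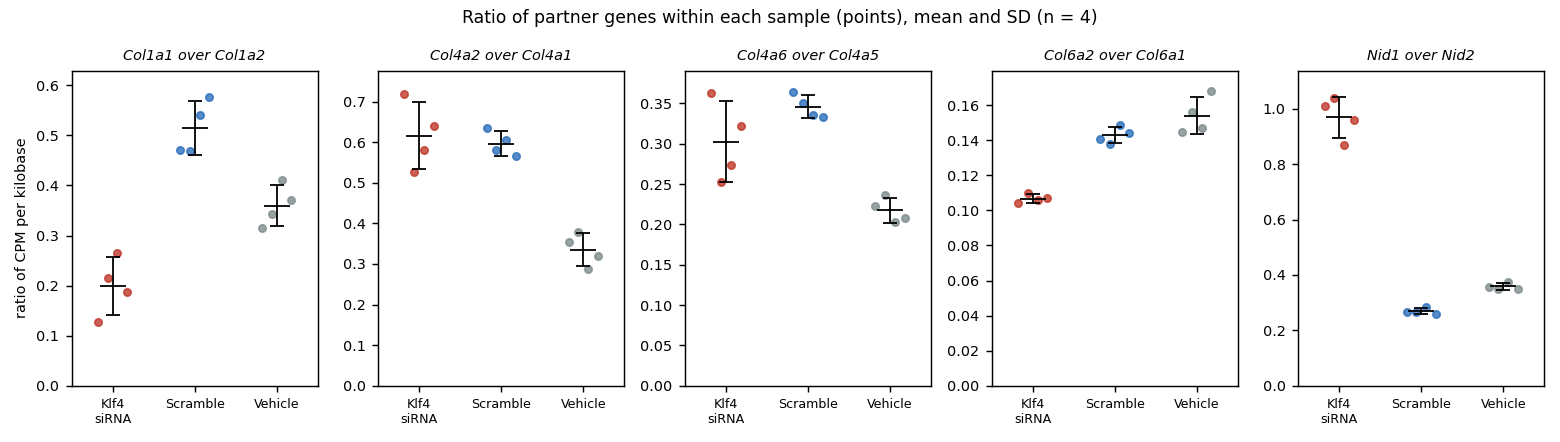
Ratio of CPM per kilobase of 2 partner genes in each sample (points), with mean and SD (n = 4). Col4a2 over Col4a1 and Col4a6 over Col4a5 were lowest in Vehicle, Col6a2 over Col6a1 was lowest with the Klf4 siRNA, and Nid1 over Nid2 was highest there.

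Nidogens, the linkers between laminin and type IV collagen, went in opposite directions with the Klf4 siRNA. Nid1 (chromosome 13, 13437551 to 13512269) was at 318, 340, 298 and 326 CPM in Klf4 siRNA samples, 169, 176, 186 and 168 in those of Scramble and 181, 187, 180 and 189 in those of Vehicle. Every Klf4 siRNA sample lay above all others, 1.84-fold over Scramble (log2 fold change 0.88, SE 0.05, adjusted p by edgeR = 6.6e-08) and 1.75-fold over Vehicle (0.81, SE 0.05, adjusted p by edgeR = 6.2e-08). Scramble and Vehicle overlapped for Nid1 (log2 fold change -0.07, SE 0.04, adjusted p by edgeR = 0.18). Nid2 (chromosome 14, 19751265 to 19811787) was at 234, 244, 255 and 253 CPM in Klf4 siRNA samples, 472, 495, 488 and 486 in those of Scramble and 376, 397, 356 and 403 in those of Vehicle. No groups overlapped, and the Klf4 siRNA group stood at 51% of Scramble (log2 fold change -0.97, SE 0.04, adjusted p by edgeR = 5.8e-09). Per length, Nid1 over Nid2 was 0.97 ± 0.0747 with the Klf4 siRNA, 0.269 ± 0.0111 for Scramble and 0.358 ± 0.0122 for Vehicle (SD, n = 4), and all 3 comparisons gave exact permutation p = 0.0286 (adjusted 0.0358). The exons of Nid2 share 8.45% of their bases with Rtraf on the other strand, so part of its reads cannot be assigned.

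Of 7 laminin chain genes tested, Lamb2, Lama4 and Lama5 were lower with the Klf4 siRNA than in Scramble and 4 did not pass. Lamb2, a beta chain gene, was at 451, 539, 532 and 515 CPM in Klf4 siRNA samples, 789, 820, 872 and 771 in those of Scramble and 590, 687, 549 and 623 in those of Vehicle. The groups did not overlap, and Lamb2 gave -0.67 (SE 0.06, adjusted p by edgeR = 2.1e-06) for Klf4 siRNA over Scramble. Against Vehicle its log2 fold change was -0.26 (SE 0.07, adjusted p by edgeR = 0.012), a call that ended without Klf4 siRNA samples 1 and 4 (adjusted p by edgeR = 0.0577). Lamc1, the common gamma chain gene, was at 117, 164, 154 and 173 CPM in Klf4 siRNA samples, 195, 181, 184 and 160 in those of Scramble and 182, 225, 221 and 215 in those of Vehicle. Its Klf4 siRNA and Scramble samples overlapped and did not pass (-0.24, SE 0.10, adjusted p by edgeR = 0.085), while Vehicle stood above Klf4 siRNA (-0.46, SE 0.11, adjusted p by edgeR = 0.0034). The alpha chain gene Lama5 was at 8.49, 9.43, 8.93 and 9.44 CPM in Klf4 siRNA samples, 17.7, 14, 10.4 and 13.8 in those of Scramble and 5.66, 6.99, 6.79 and 6.34 in those of Vehicle. No groups overlapped, with -0.62 (SE 0.13, adjusted p by edgeR = 0.0029) for Klf4 siRNA over Scramble and 1.12 (SE 0.14, adjusted p by edgeR = 1.8e-05) for Scramble over Vehicle. Lamb1, the other main beta chain gene, was little read, at 1.28, 0.711, 0.884 and 0.486 CPM in Klf4 siRNA samples, 0.938, 0.615, 0.572 and 0.68 in those of Scramble and 0.771, 0.928, 0.467 and 0.261 in those of Vehicle, and all groups overlapped.

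The remaining laminin genes described here were little read. Lamb3, a beta chain gene of epithelial laminin, had 2, 2, 2 and 4 counts in Klf4 siRNA, 11, 3, 1 and 5 in Scramble and 14, 16, 13 and 39 in Vehicle, and every Vehicle sample lay above the rest. It was called lower in Scramble than in Vehicle (adjusted p by edgeR = 0.0029), and its fold is not given at so few counts. Lama3 passed in no comparison. Lama4, with 6 to 61 counts per sample, was called higher in Scramble than in Vehicle (2.13, SE 0.33, adjusted p by edgeR = 0.00012), and its call against Klf4 siRNA (adjusted p by edgeR = 0.021) ended without Scramble sample 2, without Scramble sample 3 and without Klf4 siRNA samples 1 and 4 (highest adjusted p = 0.0719 by edgeR).

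Agrin and perlecan are heparan sulfate proteoglycans of basement membranes. Agrn was at 50.2, 61.2, 64.9 and 78.5 CPM in Klf4 siRNA samples, 98.8, 86.4, 85.3 and 77.7 in those of Scramble and 28.4, 37.9, 29.2 and 32 in those of Vehicle. Both siRNA groups lay above Vehicle, by 2.01-fold for Klf4 siRNA (log2 fold change 1.01, SE 0.13, adjusted p by edgeR = 3.4e-05) and 2.73-fold for Scramble (1.45, SE 0.09, adjusted p by edgeR = 3.7e-08). Agrn was lower with the Klf4 siRNA than in Scramble (-0.45, SE 0.11, adjusted p by edgeR = 0.0075), though the samples overlapped. Hspg2 was at 5.87, 5.75, 7.34 and 8.37 CPM in Klf4 siRNA samples, 10.7, 10.5, 11.7 and 12 in those of Scramble and 12, 12.7, 11.7 and 12.1 in those of Vehicle. Its Klf4 siRNA samples lay below all others (-0.71, SE 0.12, adjusted p by edgeR = 0.00067 against Scramble), and Scramble and Vehicle did not pass (-0.12, SE 0.08, adjusted p by edgeR = 0.24).

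Both abundant type VI collagen genes were highest in Scramble. Col6a1 (chromosome 10, 76708792 to 76726168, minus strand) was at 581, 547, 551 and 536 CPM in Klf4 siRNA samples, 1040, 1030, 1060 and 992 in those of Scramble and 308, 365, 306 and 328 in those of Vehicle. The 3 groups did not overlap, and Scramble stood 3.15-fold over Vehicle (log2 fold change 1.66, SE 0.05, adjusted p by edgeR = 4.6e-11). With the Klf4 siRNA, Col6a1 stood at 54% of Scramble (-0.89, SE 0.04, adjusted p by edgeR = 6.3e-09). Col6a2, its neighbour on the same strand (76595762 to 76623630), was at 114, 115, 111 and 109 CPM in Klf4 siRNA samples, 278, 272, 299 and 271 in those of Scramble and 84.7, 108, 85.6 and 105 in those of Vehicle. It stood at 40.2% of Scramble with the Klf4 siRNA (-1.31, SE 0.04, adjusted p by edgeR = 1.5e-09), and Scramble stood 2.92-fold over Vehicle (1.55, SE 0.08, adjusted p by edgeR = 3.2e-09). Per length, Col6a2 over Col6a1 was 0.107 ± 0.00272 with the Klf4 siRNA, below 0.143 ± 0.00469 in Scramble and 0.154 ± 0.0106 in Vehicle (SD, n = 4; exact permutation p = 0.0286, adjusted 0.0358, for both). Scramble and Vehicle overlapped in this ratio (exact permutation p = 0.114, adjusted 0.132). For Klf4 siRNA over Vehicle, Col6a2 had a log2 fold change of 0.24 (SE 0.08, adjusted p by edgeR = 0.028), which ended in 6 of 14 alternatives (highest adjusted p = 0.0867).

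Both type I collagen chains, which form a common trimer in fibrils, were read, but only Col1a1 was lower with the Klf4 siRNA than in Scramble. Col1a1 (chromosome 11, 94936224 to 94953042) was at 5.32, 9.12, 11.4 and 7.3 CPM in Klf4 siRNA samples, 20.5, 21.8, 22.8 and 25.2 in those of Scramble and 19.7, 22.1, 25.7 and 22.9 in those of Vehicle. Every Klf4 siRNA sample lay below all others, at 36.9% of Scramble (log2 fold change -1.44, SE 0.17, adjusted p by edgeR = 3.7e-05) and 37% of Vehicle (-1.43, SE 0.18, adjusted p by edgeR = 3.6e-05). Col1a2 (chromosome 6, 4504814 to 4541544) was at 79.3, 80.2, 81.4 and 73.4 CPM in Klf4 siRNA samples, 82.7, 88.2, 79.6 and 82.6 in those of Scramble and 119, 121, 119 and 117 in those of Vehicle. Klf4 siRNA and Scramble overlapped (-0.08, SE 0.05, adjusted p by edgeR = 0.25), and both lay below Vehicle (-0.59 and -0.51, SE 0.05 each, adjusted p by edgeR = 1.3e-06 and 7.9e-07). Col1a1 over Col1a2, per length, was 0.199 ± 0.0577, 0.514 ± 0.0541 and 0.36 ± 0.0404 in Klf4 siRNA, Scramble and Vehicle (SD, n = 4), and differed in all 3 comparisons (exact permutation p = 0.0286, adjusted 0.0358, for each).

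Of other collagens, Col5a1, Col3a1 and Col8a1 were all lower with the Klf4 siRNA than in Scramble. Col5a1, which regulates fibril width, was at 153, 159, 173 and 171 CPM in Klf4 siRNA samples, 315, 284, 299 and 284 in those of Scramble and 222, 254, 215 and 231 in those of Vehicle, and stood at 55.7% of Scramble with the Klf4 siRNA (-0.85, SE 0.05, adjusted p by edgeR = 1.1e-07). Col3a1 was at 1.68, 1.52, 1.5 and 2.37 CPM in Klf4 siRNA samples, 2.91, 3.34, 2.78 and 2.24 in those of Scramble and 3.65, 4.79, 6.36 and 4.86 in those of Vehicle, and Vehicle was the highest group. Its fall from Vehicle to Klf4 siRNA was -1.47 on the log2 scale (SE 0.20, adjusted p by edgeR = 7.4e-05), and its call between Klf4 siRNA and Scramble (-0.67, SE 0.19, adjusted p by edgeR = 0.015) ended without Scramble sample 2 (adjusted p by edgeR = 0.0589). Col8a1, a network-forming collagen, was at 10.6, 9.77, 11.8 and 11.2 CPM in Klf4 siRNA samples, 25.6, 31, 35.6 and 29.5 in those of Scramble and 24.4, 21.7, 20.4 and 18.1 in those of Vehicle. The 3 groups did not overlap, and the Klf4 siRNA group stood at 35.8% of Scramble (-1.48, SE 0.10, adjusted p by edgeR = 2.8e-07).

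Col9a3, a chain of the fibril-associated type IX collagen of cartilage, was the only collagen gene called higher with the Klf4 siRNA than in Scramble. It lies on chromosome 2 (180597790 to 180622189) and was at 25.3, 24.6, 22.7 and 21.7 CPM in Klf4 siRNA samples, 8.46, 8.28, 9.27 and 8.55 in those of Scramble and 9.25, 7.18, 7.36 and 5.68 in those of Vehicle. Every Klf4 siRNA sample lay above all others, 2.74-fold over Scramble (log2 fold change 1.45, SE 0.08, adjusted p by edgeR = 6e-08) and 3.22-fold over Vehicle (1.69, SE 0.13, adjusted p by edgeR = 3.3e-07). Scramble and Vehicle did not pass (0.23, SE 0.13, adjusted p by edgeR = 0.14). Its exons share 6.07% of their bases with Tcfl5 on the other strand.

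Several little-read collagens were lower in Vehicle than in Scramble. Col11a2 was at 1.62, 1.7, 1.89 and 2.43 CPM in Klf4 siRNA samples, 3.43, 3.51, 3.74 and 2.75 in those of Scramble and 1.68, 1.11, 0.79 and 1.04 in those of Vehicle, with 1.53 on the log2 scale for Scramble over Vehicle (SE 0.21, adjusted p by edgeR = 3.6e-05). Col16a1 was at 4.19, 2.88, 3.95 and 3.27 CPM in Klf4 siRNA samples, 7.08, 5.68, 6.06 and 6.37 in those of Scramble and 2.11, 3.56, 3.48 and 2.29 in those of Vehicle, with 1.15 for the same comparison (SE 0.17, adjusted p by edgeR = 7.5e-05). Col11a2 and Col16a1 were also lower with the Klf4 siRNA than in Scramble (-0.81 each, adjusted p by edgeR = 0.0025 and 5e-04). In both genes Klf4 siRNA and Vehicle samples overlapped. For Klf4 siRNA over Vehicle, the Col11a2 call (0.73, adjusted p by edgeR = 0.026) ended in 5 of 14 alternatives. Col16a1 did not pass there (0.33, adjusted p by edgeR = 0.19). Col22a1, a collagen of tissue junctions, was at 3.45, 3.31, 2.77 and 3.31 CPM in Klf4 siRNA samples, 4.42, 3.95, 4.31 and 3.43 in those of Scramble and 1.81, 1.27, 1.19 and 1.48 in those of Vehicle. Vehicle lay below both siRNA groups for Col22a1, with 1.48 for Scramble (SE 0.17, adjusted p by edgeR = 6.8e-06) and 1.17 for Klf4 siRNA (SE 0.17, adjusted p by edgeR = 0.00014) over it. Col17a1, Col20a1 and Col27a1, at mean levels of 0.268 to 3.23 CPM, were likewise called higher in each siRNA group than in Vehicle and did not pass between Klf4 siRNA and Scramble. Col6a6 was higher in Scramble than in both other groups, at 4 to 76 counts per sample. Col5a2 was called lower with the Klf4 siRNA than in Scramble and Vehicle, and Col5a3 was called only between Scramble and Vehicle (adjusted p by edgeR = 0.031). Both calls, Col5a2 against Scramble and Col5a3, ended when single samples were left out. Col2a1 was higher in Scramble than in Klf4 siRNA (adjusted p by edgeR = 0.0019) and Vehicle (adjusted p by edgeR = 0.00066). Col6a3, Col7a1, Col18a1 and Col23a1, below 2 CPM in every group mean, and Lamb1 passed in no comparison in which they were tested.

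Of the interstitial glycoproteins, Fn1, the fibronectin gene (chromosome 1, 71585520 to 71653200), was at 951, 1250, 1190 and 1310 CPM in Klf4 siRNA samples, 1590, 1380, 1440 and 1400 in those of Scramble and 835, 919, 910 and 904 in those of Vehicle. Scramble lay above Klf4 siRNA (-0.30, SE 0.08, adjusted p by edgeR = 0.012), which lay above Vehicle (0.41, SE 0.08, adjusted p by edgeR = 0.0013). Sparc (chromosome 11, 55394500 to 55423183) had another order, at 1790, 1800, 1790 and 1630 CPM in Klf4 siRNA samples, 2160, 2190, 2170 and 2280 in those of Scramble and 2940, 2870, 2820 and 2980 in those of Vehicle. The groups did not overlap, and Sparc fell to 75.9% of Vehicle in Scramble (-0.40, SE 0.03, adjusted p by edgeR = 6.3e-07) and to 79.9% of Scramble with the Klf4 siRNA (-0.32, SE 0.04, adjusted p by edgeR = 3.6e-05). Postn, whose product periostin binds collagen and integrins (chromosome 3, 54361109 to 54391037), was at 6.39, 6.93, 7.63 and 5.87 CPM in Klf4 siRNA samples, 18, 20.5, 20.7 and 22.5 in those of Scramble and 12.1, 14, 12.6 and 13.2 in those of Vehicle. No groups overlapped for Postn, and it had the largest fall of any member with the Klf4 siRNA, to 33% of Scramble (-1.60, SE 0.10, adjusted p by edgeR = 1.5e-07).

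**Figure D4:**
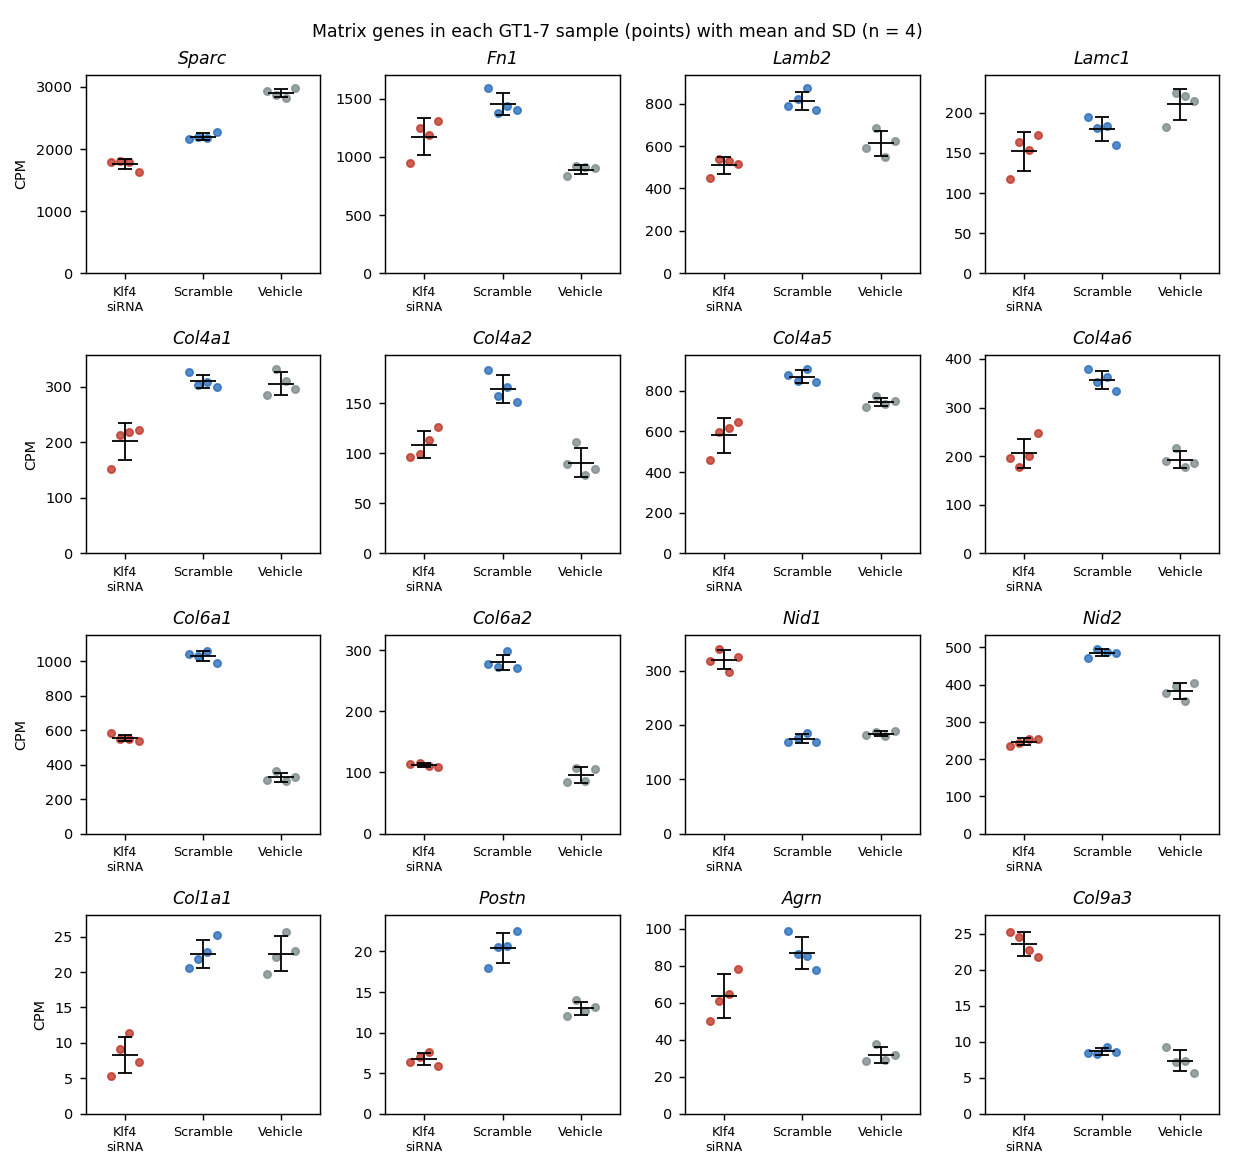
CPM of 16 matrix genes in each sample (points), with mean and SD (n = 4 per group), each axis starting at 0. Col6a1 and Col6a2 stood highest in Scramble, Sparc in Vehicle, and Nid1 and Col9a3 in Klf4 siRNA.

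Fibulins and fibrillin build and decorate elastic microfibrils, and all 4 of their genes among the members were lower with the Klf4 siRNA than in Scramble. Fbln5 was at 4.52, 4.92, 3.06 and 2.46 CPM in Klf4 siRNA samples, 9.87, 10.3, 10.3 and 10.5 in those of Scramble and 7.04, 6.5, 6.65 and 7.76 in those of Vehicle, with no overlap (-1.45, SE 0.17, adjusted p by edgeR = 3.2e-05 for Klf4 siRNA over Scramble). Fbln2 was highest in Vehicle, at 2.44, 2.91, 3.12 and 3.57 CPM in Klf4 siRNA samples, 3.63, 4.65, 4.04 and 3.71 in those of Scramble and 7.64, 8.6, 7.04 and 8.86 in those of Vehicle. Scramble stood at 49.7% of Vehicle for Fbln2 (-1.01, SE 0.12, adjusted p by edgeR = 1.2e-05), while its call against Klf4 siRNA (adjusted p by edgeR = 0.047) ended in 10 of 14 alternatives. Fbn1, the fibrillin gene, was at 5.22, 4.45, 4.8 and 5.64 CPM in Klf4 siRNA samples, 7.95, 9.4, 9.34 and 7.96 in those of Scramble and 9.95, 12.4, 12.6 and 10.2 in those of Vehicle, the same order as Sparc. It stood at 44.8% of Vehicle with the Klf4 siRNA (-1.16, SE 0.12, adjusted p by edgeR = 7.2e-06), and 20.1% of its exonic bases are shared with a gene model on the other strand. Fbln1, the most abundant of the 4, had a log2 fold change of -0.46 (SE 0.06, adjusted p by edgeR = 4.9e-05) for Klf4 siRNA over Scramble and 0.34 (SE 0.06, adjusted p by edgeR = 0.00021) for Scramble over Vehicle.

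Genes that process, bind or regulate matrix were followed as 4 lists, whose shares are to be read against those of all genes, 18.5% higher and 17.5% lower for Klf4 siRNA over Scramble, 27.3% and 26.6% for Scramble over Vehicle, and 24.1% and 21.3% for Klf4 siRNA over Vehicle. Of 25 collagen-processing enzymes and chaperones tested, 7 (28%) were lower and 3 (12%) higher with the Klf4 siRNA over Scramble (median log2 fold change -0.16), and 8 and 4 without Klf4 siRNA samples 1 and 4. They included Crtap, of the prolyl 3-hydroxylation complex (-0.29, SE 0.04, adjusted p by edgeR = 0.00026), and the prolyl 4-hydroxylase subunit genes P4hb (-0.21, SE 0.04, adjusted p by edgeR = 0.00083) and P4ha2 (-0.31, SE 0.06, adjusted p by edgeR = 0.0016). In Scramble over Vehicle, 13 of these enzymes (52%) were lower and 2 (8%) higher (median -0.24). Pcolce2, an enhancer of procollagen cleavage (-2.36, SE 0.09, adjusted p by edgeR = 3.2e-10), the prolyl 3-hydroxylase gene P3h2 (-1.83, SE 0.13, adjusted p by edgeR = 7.8e-08) and the crosslinking oxidase gene Loxl2 (-0.93, SE 0.08, adjusted p by edgeR = 5.8e-07) were among them. Klf4 siRNA over Vehicle gave 15 lower (60%) and 2 higher (8%) of 25 (median -0.33), and 16 and 1 without those samples, with P3h2 at -2.26 (SE 0.13, adjusted p by edgeR = 4.6e-08), Pcolce2 at -1.74 (SE 0.11, adjusted p by edgeR = 1e-07) and Crtap at -0.74 (SE 0.06, adjusted p by edgeR = 4.3e-07).

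Other structural matrix proteins and proteoglycans were lower in 18 (58.1%) and higher in 3 (9.68%) of 31 with the Klf4 siRNA over Scramble (median log2 fold change -0.42), and in 16 and 1 without Klf4 siRNA samples 1 and 4. Cilp, a cartilage matrix gene (-2.23, SE 0.09, adjusted p by edgeR = 5.8e-09), Thbs1, thrombospondin (-1.20, SE 0.07, adjusted p by edgeR = 1.1e-07), and Tnc, tenascin C (-1.15, SE 0.08, adjusted p by edgeR = 2.4e-07), had the smallest p. Scramble over Vehicle gave 13 higher (41.9%) and 11 lower (35.5%, median 0.16), with Cilp at 2.40 (SE 0.09, adjusted p by edgeR = 2.6e-10) and Npnt, nephronectin, at -0.96 (SE 0.05, adjusted p by edgeR = 3.5e-09). Spon2, spondin 2, was at 2.96 (SE 0.18, adjusted p by edgeR = 2.9e-08). Klf4 siRNA over Vehicle gave 16 lower (51.6%) and 7 higher (22.6%, close to all genes), with a median of -0.30, and 16 and 6 without those samples. Tnc was at -2.14 (SE 0.07, adjusted p by edgeR = 2.1e-10) and Npnt at -1.51 (SE 0.06, adjusted p by edgeR = 6.3e-10). Efemp1, which encodes fibulin-3 but is not a member by its symbol, was at -1.68 (SE 0.11, adjusted p by edgeR = 9.1e-08).

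Matrix receptors were lower in 11 (50%) and higher in 2 (9.09%) of 22 with the Klf4 siRNA over Scramble (median log2 fold change -0.20), and in 9 and 2 without Klf4 siRNA samples 1 and 4. The syndecan gene Sdc2 fell (-1.04, SE 0.05, adjusted p by edgeR = 1.2e-08), as did the collagen receptor gene Ddr1 (-0.45, SE 0.05, adjusted p by edgeR = 2.1e-05), while the hyaluronan receptor gene Cd44 rose (0.69, SE 0.07, adjusted p by edgeR = 6e-06). Scramble over Vehicle gave 7 higher (31.8%, close to all genes) and 8 lower receptors (36.4%, median 0.02), with Sdc3 at 1.06 (SE 0.08, adjusted p by edgeR = 1.3e-07) and the integrin gene Itgb3 at 1.57 (SE 0.12, adjusted p by edgeR = 2.8e-07). The laminin-binding integrin gene Itga7 was at -0.79 (SE 0.06, adjusted p by edgeR = 3.9e-07). Klf4 siRNA over Vehicle gave 10 lower (45.5%) and 5 higher (22.7%, close to all genes; median -0.18), and 9 and 3 without those samples, with Itga3 at -0.71 (SE 0.06, adjusted p by edgeR = 1.6e-06), Sdc2 at -0.64 (SE 0.06, adjusted p by edgeR = 3.3e-06) and Itga7 at -0.53 (SE 0.06, adjusted p by edgeR = 2.4e-05).

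The TGF-beta pathway raises matrix gene transcription in many cell types. Of its 15 genes tested, 5 (33.3%) were lower and 3 (20%, close to all genes) higher with the Klf4 siRNA over Scramble (median log2 fold change -0.15), and 6 and 2 without Klf4 siRNA samples 1 and 4. The inhibitory Smad6 fell (-0.72, SE 0.10, adjusted p by edgeR = 0.00012), as did the corepressor gene Skil (-0.33, SE 0.07, adjusted p by edgeR = 0.003), and the receptor gene Tgfbr2 rose (0.24, SE 0.05, adjusted p by edgeR = 0.0041). Scramble over Vehicle gave 5 higher (33.3%) and 4 lower (26.7%, close to all genes; median -0.07), with Tgfbr3 at -0.57 (SE 0.05, adjusted p by edgeR = 5.2e-07), Ltbp4 at 0.56 (SE 0.06, adjusted p by edgeR = 3.9e-06) and Smad3 at 0.52 (SE 0.07, adjusted p by edgeR = 2.7e-05). Klf4 siRNA over Vehicle gave 6 lower (40%) and 4 higher (26.7%, median -0.19), the same counts without those samples, with Tgfbr3 at -0.71 (SE 0.08, adjusted p by edgeR = 9.8e-06), Tgfbr2 at 0.55 (SE 0.11, adjusted p by edgeR = 0.0011) and Smad6 at -0.46 (SE 0.10, adjusted p by edgeR = 0.0024).

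**Figure D5:**
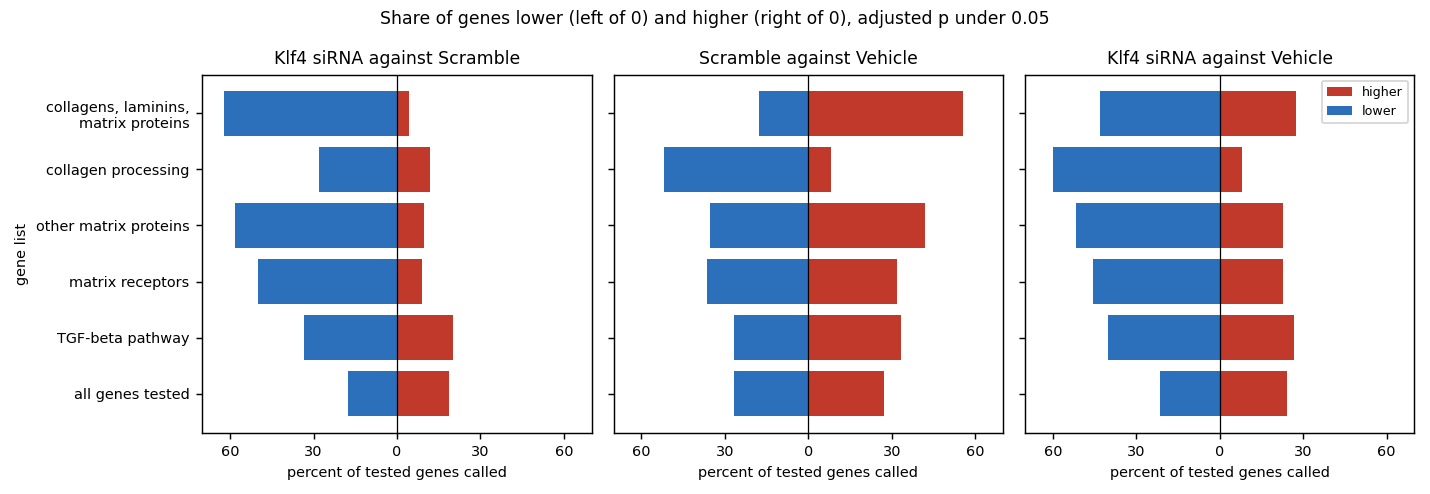
Percent of tested genes called lower (left of 0) and higher (right of 0) in each comparison, for the matrix genes, 4 related lists and all genes tested. In Klf4 siRNA against Scramble 62.2% of matrix genes were lower, against 17.5% of all genes.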

How the data were processed

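Counts of reads per Ensembl gene in 12 samples, 4 per group by their titles, were taken from 3 tables that the authors deposited, 1 for each pair of groups. The deposited counts are whole numbers per gene, described as exon counts in the submitters' design text. Tools listed by the submitters' processing notes were STAR, Subread, edgeR, STAR-Fusion and FastQC, with build mm10 and neither role nor version stated. Per the labels' protocols, libraries were made with Takara SMART-Seq Ultra Low Input, which does not mark strand. The handling of reads with several matches was not stated. The tables also held RPKM values made by the authors, log2 fold changes, p-values and a score that marked the authors' calls, per the file headers. Of these the score was used for counts of the authors' calls, and RPKM was used to check that it equals count over length and an effective library size.

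Each comparison was tested on the counts of its own 8 samples with edgeR 4.0.16 and limma 3.58.1 in R 4.3.3 (quasi-likelihood test, TMM scaling, the default filter on low counts, no block), with calls made below 0.05 after Benjamini-Hochberg adjustment over all genes tested. The test was checked on simulated data. Fold changes give the group named first over the second, and an SE is the log2 fold change divided by the square root of F. CPM was scaled by TMM over all 12 samples, and CPM per kb divides it by the deposited gene length. Positions came from GENCODE M21 on mm10, and promoters from RefSeq on GRCm38.p6, where 35 of 46 members matched. All 45, 45 and 44 members in the tables passed the filter. Counts over members include 1 gene whose own values are not reported here. Lamb3 is absent from the comparison of Klf4 siRNA with Scramble, Lamb1 from Scramble with Vehicle, and Lama4 and Col18a1 from Klf4 siRNA with Vehicle.

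Values in every sample are given for the 14 members with the largest called change at a mean of at least 2 CPM and for partner chains. Up to 3 called genes per list with the smallest p are named. The members and lists were chosen with earlier results of these data known, and the chain ratios were added after the values were seen. The alternatives were RLE scaling, DESeq2 1.42.0, no low-count filter, a fit of all 12 samples, a replicate block, a threshold of 1 on the log2 fold change, each sample left out, and Klf4 siRNA samples 1 and 4 left out (for the related gene lists, added after seeing the data).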

Additional observations from a re-analysis of the deposited data

Results flagged for a closer look

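Each group of 4 samples was examined for a sample far from the other 3, over the CPM of the 46 genes and the 5 ratios. Of 153 groups examined, 7 held such a sample, where chance gives about 1 in 20. In Klf4 siRNA sample 1, Col4a1 stood at 152 CPM against 214 to 222 in the other 3. Klf4 siRNA sample 2 had 1.89 CPM of Col23a1 against 0.886 to 1. Klf4 siRNA sample 4 had 1630 CPM of Sparc against 1790 to 1800, and 0.13 CPM of Lamb3 against 0.0589 to 0.0618. That Lamb3 value rests on 4 counts against 2 in each other sample of the group. Vehicle sample 1 had 4.56 CPM of Col2a1 against 5.82 to 6.06, and 3.32 CPM of Col4a4 against 2.01 to 2.14. Vehicle sample 4 had 1.13 CPM of Lamb3 against 0.467 to 0.495.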

How the results depend on the processing

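Of 94 calls on single members, 85 stayed past the threshold in every alternative other than the stricter fold threshold, and 9 ended in at least 1. They were Lama4, Col3a1, Col5a2 and Fbln2 between Klf4 siRNA and Scramble, Lamc1 and Col5a3 between Scramble and Vehicle, and Lamb2, Col11a2 and Col6a2 between Klf4 siRNA and Vehicle. With a log2 fold change of at least 1 as well, 1 member was higher and 7 lower in Klf4 siRNA over Scramble, 11 and 2 in Scramble over Vehicle, and 5 and 6 in Klf4 siRNA over Vehicle, by construction fewer. Without Klf4 siRNA samples 1 and 4, an alternative chosen for the related lists after seeing the data, counts that moved by over 1.5 times were other structural matrix genes higher over Scramble (1) and, over Vehicle, collagen-processing genes higher (1) and receptors higher (3). When each sample was left out in turn, the counts of members higher and lower were 2 to 3 and 25 to 30, 24 to 27 and 7 to 9, and 10 to 12 and 19 to 19 in the same order. With the replicate number as a block, 2 were higher and 26 lower, 24 and 8, and 13 and 19. The labels did not say whether the numbers pair the samples. Correlations of same-numbered deviations ran from -0.32 to 0.28, and not every sample was closest to its own number, which does not settle it. No sign of a call reversed. Among genes reported here, values that did not pass and changed sign were, for Klf4 siRNA over Scramble, Col17a1 (0.03 without Klf4 siRNA samples 1 and 4), and over single samples left out Lama3 (-0.34 to 0.09), Col18a1 (-0.61 to 0.29), Col4a4 (-0.05 to 0.25), Lamb1 (-0.02 to 0.44), Col23a1 (-0.16 to 0.28) and the Col4a2 over Col4a1 ratio (log2 difference -0.04 to 0.11). For Scramble over Vehicle they were Col1a1 (0 with the replicate block), and over single samples left out Col4a4 (-0.37 to 0.01), Col4a1 (-0.01 to 0.06), Col18a1 (-0.54 to 0.36), Col5a2 (-0.36 to 0) and Col1a1 (-0.06 to 0.07). For Klf4 siRNA over Vehicle they were Col4a6 (-0.02), Col7a1 (-0.26) and Col5a3 (-0.7) without Klf4 siRNA samples 1 and 4, and over single samples left out Col4a4 (-0.24 to 0.07), Col2a1 (-0.04 to 0.09), Col7a1 (-0.09 to 0.14), Col5a3 (-0.24 to 0.26), Col6a6 (-0.52 to 0.19) and Col4a6 (0 to 0.17). The cause was not tested. Ratios with a sample left out are given as values only and were not tested.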
